A study of Mus musculus with 1073 samples.

Results

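Apelin, adrenomedullin and sphingosine 1-phosphate (S1P) signal to endothelial and blood cells through G protein-coupled receptors. The 8 genes described here encode the receptors and peptide ligands of these systems. They are *Aplnr* and *Apln* (the apelin receptor and apelin), *Calcrl*, *Ramp2* and *Adm* (both parts of the adrenomedullin receptor, and adrenomedullin), and *S1pr1*, *S1pr2* and *S1pr3* (receptors of the lipid S1P). They were chosen by name, and all 8 are among the 15967 genes of the filtered count table. The study asked how mesoderm of the mouse yolk sac gives rise to blood, endothelium and mesenchyme, and sequenced RNA of single cells sorted from pooled yolk sacs. The 8 genes were followed through 13 sorted populations.

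The earliest populations were *Flk1*-GFP+ cells of E7.25 (86 cells of a haemato-endothelial class defined below and 61 others; the bracketed cell names in the labels read E7.5) and E7.75 (140 cells) from mice that carry 1 *Flk1*-GFP allele, which marks mesoderm with vascular and blood potential. All later cells came from C57BL/6 embryos. Haematopoietic progenitor cells (HPCs, also named erythro-myeloid progenitors in the labels) were TER119-CDH5+CD41+ in 73 cells of E8.25 and 89 of E8.5, and TER119-CDH5-CD45+CD41low in 46 cells of E9.5 and 87 of E10.5. CDH5, an endothelial cadherin, was thus demanded of the early HPCs and refused in the later ones. Endothelial cells (Endo) were TER119-CD41-CDH5+ at E8.5 (79 cells) and TER119-CD45-CD41-CDH5+ at E10.5 (61 cells). Primitive erythroid cells (EryP) were TER119+CDH5- at E8.5 (66 cells) and E10.5 (3 cells), megakaryocytes (Mk) were TER119-CDH5-CD41+ at E8.5 (37 cells) and TER119-CDH5-CD45-CD41high at E10.5 (73 cells), and macrophages (Mac) were TER119-CDH5-CD41-CD45+ at E10.5 (25 cells). No label ties a cell to an embryo, so each population counted as 1 sample. No test between populations was possible, the differences have no replicate check, and intervals below cover counting error only.

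Apelin and its relative Apela (also called Elabela or Toddler) act on the same receptor, APLNR, which is known in angiogenesis and in the movement of mesoderm at gastrulation. CALCRL reaches the cell surface with a RAMP protein, which sets its ligand. With RAMP2 it is a receptor for adrenomedullin, a peptide that lymphatic and blood vessels need, and with RAMP1 it is the receptor for calcitonin gene-related peptide (CGRP). S1P is made inside cells by sphingosine kinases and is exported. Of its receptors, S1PR1 couples to Gi and stabilises new vessels, while S1PR2 and S1PR3 couple to further G proteins, and S1PR2 is known to oppose cell migration.

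On GRCm38, *Aplnr* is at chr2:85136225-85139923 (+ strand), in the same chromosome region as *Calcrl* (chr2:84330626-84425411, - strand). *Aplnr* was a single exon of 3699 bases, and *Calcrl* had 16 exon blocks. *Apln* is at chrX:48025146-48034853 (-), *Ramp2* at chr11:101246028-101259546 (+) and *Adm* at chr7:110627661-110629820 (+). *S1pr1* is at chr3:115710433-115715072 (-), *S1pr2* at chr9:20962361-20976781 (-) and *S1pr3* at chr13:51408639-51422797 (+). *Ramp2* shares 1103 exonic bases with its neighbour *Vps25* on the same strand, and *S1pr3* shares 45 bases with the opposite gene *Gm32834*. Reads in these stretches cannot be assigned to either gene with certainty. No other member overlapped an exon of another gene in this annotation.

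RefSeq promoters were held for 5 of the 8 members. Those of the 3 members of this set with their highest mean level in endothelium, *Apln*, *Calcrl* and *Adm*, are shown with that of *S1pr2*, the member highest in *Flk1*-GFP+ mesoderm. Each runs 5′ to 3′ on the gene's strand, from 250 bases before to 50 after the start (GRCm38.p6). Capitals mark GGAA or TTCC, the core read by ETS factors, a family known for its part in endothelial genes. The windows are chrX:48034804-48035103 (-) for *Apln*, chr2:84425217-84425516 (-) for *Calcrl*, chr7:110627407-110627706 (+) for *Adm* and chr9:20976744-20977043 (-) for *S1pr2*.
Apln: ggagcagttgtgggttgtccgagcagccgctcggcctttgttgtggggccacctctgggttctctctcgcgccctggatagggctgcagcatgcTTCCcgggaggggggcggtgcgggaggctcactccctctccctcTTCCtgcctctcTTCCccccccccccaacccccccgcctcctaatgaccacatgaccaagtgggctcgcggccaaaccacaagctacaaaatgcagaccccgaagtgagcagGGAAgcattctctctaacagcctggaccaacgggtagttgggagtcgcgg
Calcrl: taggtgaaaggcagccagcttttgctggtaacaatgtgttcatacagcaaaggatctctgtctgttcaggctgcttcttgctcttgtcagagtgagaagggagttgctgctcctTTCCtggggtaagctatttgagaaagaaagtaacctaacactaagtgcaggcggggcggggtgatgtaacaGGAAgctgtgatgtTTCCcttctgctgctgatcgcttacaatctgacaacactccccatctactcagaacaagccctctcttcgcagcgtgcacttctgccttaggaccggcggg
Adm: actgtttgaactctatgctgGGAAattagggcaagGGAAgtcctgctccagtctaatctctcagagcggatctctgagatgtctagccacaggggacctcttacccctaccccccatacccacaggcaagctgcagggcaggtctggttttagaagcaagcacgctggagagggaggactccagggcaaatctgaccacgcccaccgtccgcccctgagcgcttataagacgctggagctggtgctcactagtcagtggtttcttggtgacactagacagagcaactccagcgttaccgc
S1pr2: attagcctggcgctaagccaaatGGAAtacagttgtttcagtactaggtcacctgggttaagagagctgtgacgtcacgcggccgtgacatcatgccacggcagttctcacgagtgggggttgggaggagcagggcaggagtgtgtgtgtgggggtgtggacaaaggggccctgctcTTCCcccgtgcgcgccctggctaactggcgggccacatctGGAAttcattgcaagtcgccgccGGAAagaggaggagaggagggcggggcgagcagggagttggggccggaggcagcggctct

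The core was found 4 times in the *Apln* and *S1pr2* windows, 3 times in that of *Calcrl* and 2 times in that of *Adm*. Of 32851 promoters of the same length, 96.0% hold it at least once on either strand, 66.3% hold 3 or more and 46.3% hold 4 or more, which is the background for these numbers. The HIF core (ACGTG or CACGT, in 19.6% of promoters) and a GATA core (GATAA or TTATC, in 25.4%) were absent from these 4 windows. The matches describe letters in these windows only.

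Filtered cells held 483830 to 5943204 counts each (median 1887347.5), and population medians ran from 1555237 (E8.5 HPC) to 3536330 (E8.5 Mk). Of 5 endothelial markers (*Pecam1*, *Cdh5*, *Tek*, *Kdr* and *Plvap*), all 5 were found in at least 90% of cells of both Endo populations, and none in the 3 E10.5 EryP cells. The study's own endothelial markers also include *Aplnr* and *Ramp2*, which were left out of these 5 because they are members. In all, 293 filtered cells held at least 5 counts of *Xist* and at least 5 of Y-linked genes. They made up 59 of 79 E8.5 Endo cells and 26 of 61 E10.5 Endo cells. Ratios and single shares of the members, some joint shares and the named correlations between genes within populations were repeated without them. Shares in the haemato-endothelial class and single shares of genes outside the members, such as *Apela* and *Ramp1*, were not repeated. Nor were the joint shares of *Apela* with *Aplnr* and of *Aplnr*, *Calcrl*, *Ramp2* and *S1pr1* together. What the cells with counts of *Xist* and of Y-linked genes were was not tested. One flow cell carried the populations of E7.25, E8.25 and E8.5, and the remaining stages ran on a second one, so that stage and flow cell cannot be told apart from E8.5 to E10.5 or from E7.25 to E7.75. Each population of E8.25 and E8.5 ran in a lane of its own, so that population and lane cannot be told apart there.

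Levels are means of the authors' CPM, counts scaled for depth with scran size factors, and a gene was called detected at 1 count or more. In all, 6 members had their highest level in an Endo population: *Aplnr*, *Calcrl*, *Ramp2* and *Adm* at E10.5, and *Apln* and *S1pr1* at E8.5. This was 6 of the 7 members with a mean of at least 10 CPM in any population, and 25.3% of all 12324 such genes had their highest level in E8.5 or E10.5 Endo. For *Aplnr* and *Ramp2* the study had itself reported expression as a feature of its E10.5 endothelium. *S1pr2* was highest in E7.25 *Flk1*-GFP+ cells (27.5 CPM), and *S1pr3* never passed 2.48 CPM (E9.5 HPC). The 4 genes *Aplnr*, *Calcrl*, *Ramp2* and *S1pr1* were detected together in 79 of 79 E8.5 Endo cells and 58 of 61 E10.5 Endo cells. They were found together in 54.8% of E8.25 HPCs, 38.2% of E8.5 HPCs and at most 6.12% of cells of every other population.

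**Figure D1:**
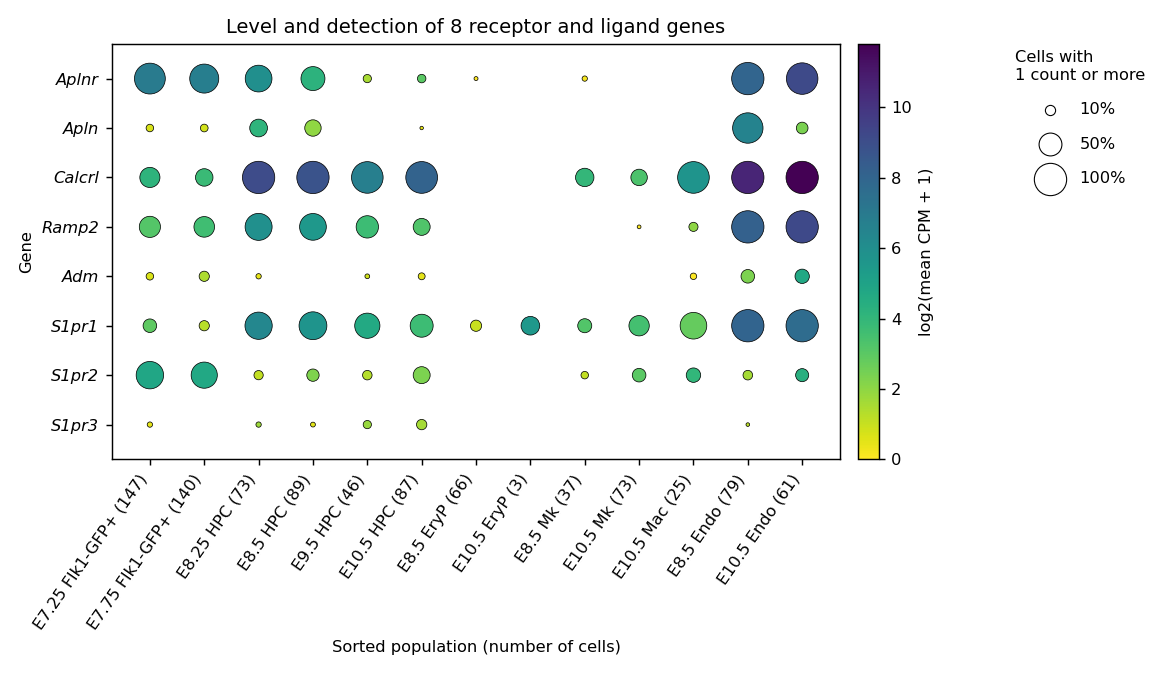
Each circle gives 1 gene (rows) in 1 sorted population (columns, with the number of cells). Its area shows how many percent of the cells held a count, and its colour the log2 of mean CPM + 1. *Calcrl* in E10.5 Endo is the darkest circle (mean 3578 CPM), the EryP columns are almost empty, and *S1pr2* is widest in *Flk1*-GFP+ cells.

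*Aplnr* was present from the first stage. In E7.25 *Flk1*-GFP+ cells it ranged from 0 to 1271 CPM with a median of 64.8, and was detected in 91.2% of cells (exact 95% interval 85.4 to 95.2). At E7.75 its median was 31.1 CPM, its range 0 to 846 CPM and its share 80.7% (73.2 to 86.9). The means of 121.9 and 111.6 CPM differed by 1.09-fold. The 4 pairings of 1 sequencing lane per stage left *Aplnr* under 2-fold, but on the mean of log2(CPM + 1) the E7.75 cells were lower by 1.15, against a median of -0.02 over all genes. The gene was thus found in most early mesoderm cells, at levels that varied widely from cell to cell.

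Endothelium held more *Aplnr* than any other population. Every E8.5 Endo cell had it, with a lowest value of 1.54, a median of 184 and a highest of 1053 CPM. In E10.5 Endo the values ran from 0 through a median of 297 to 2462 CPM, and 58 of 61 cells had it. The HPCs of successive stages held less: 68.5% of E8.25 cells (median 1.07, highest 528 CPM), 55.1% of E8.5 cells (median 0.635, highest 228 CPM), 3 of 46 E9.5 cells and 6 of 87 E10.5 cells. The E10.5 HPC mean of 6.99 CPM came to 74.6% from 1 cell with 454 CPM, and without it was 1.80 CPM. That cell held 662 CPM of *Cdh5*, 230 CPM of *Plvap* and 1.34 CPM of *Ptprc*, the gene of CD45. The next 2 cells (94.1 and 57.6 CPM of *Aplnr*) also held *Cdh5* and *Plvap*, with 338.1 and 0.345 CPM of *Ptprc*. The other 3 had 1 count of *Aplnr* each. Of the 81 E10.5 HPCs without *Aplnr*, 40.7% held *Cdh5* and 9.88% held *Plvap*.

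Other blood cells almost lacked *Aplnr*. It was found in 1 of 66 E8.5 EryP cells, with 1 count (1.52%, interval 0.0384 to 8.16, median total 2099062.5 counts), which gives the background for the shares above. It was found in 1 of 37 E8.5 Mk cells, in 0 of 73 E10.5 Mk cells (a limit of 4.11%) and in 0 of 25 Mac cells (a limit of 12.0%).

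The ligands of APLNR were found at different times. *Apela* was almost limited to the *Flk1*-GFP+ cells: 28.6% of cells at E7.25 (mean 16.3 CPM) and 67.9% at E7.75 (50.0 CPM), then 1 cell in each of E8.25 and E8.5 HPC and 0 cells in the other 9 populations. Its level at E7.75 was more than 2-fold that at E7.25. *Apln* was in 8 cells of each *Flk1*-GFP+ stage (5.44% and 5.71%), in 30.1% of E8.25 HPCs and in 25.8% of E8.5 HPCs. In E8.5 Endo it was found in 70 of 79 cells (88.6%, 79.5 to 94.7), with a lowest value of 0, a median of 56.0 and a highest of 506 CPM. By E10.5 Endo it was found in 8 of 61 cells (13.1%, 5.84 to 24.2), with a median of 0 and a highest value of 132.3 CPM. No *Apln* count was seen in E9.5 HPC, EryP, Mk or Mac cells, and 1 of 87 E10.5 HPCs had it. For 0 of 46 E9.5 HPCs the share could be up to 6.52%.

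Ligand and receptor were often in the same cell. *Apln* and *Aplnr* were detected together in 70 of 79 E8.5 Endo cells, so that every *Apln* cell there also held *Aplnr*, which every cell held. The same held for all 8 *Apln* cells of E10.5 Endo and all 8 of E7.25. In E8.25 HPC 19 of 22 *Apln* cells held *Aplnr* (26.0% of all cells, where the product of the shares is 20.6%), and in E8.5 HPC 14 of 23 (15.7%, product 14.2%). Without the cells that held counts of both sexes the share was 100% in E8.5 Endo (20 cells) and 5.71% in E10.5 Endo. *Apela* and *Aplnr* met in 55.7% of E7.75 cells and 25.2% of E7.25 cells, close to the 54.8% and 26.0% that the product of their separate shares gives. At 10 counts or more for each gene, the *Apln* and *Aplnr* share was 73.4% in E8.5 Endo and 1.12% in E8.5 HPC.

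*Calcrl* was the member with the highest level in endothelium, also per kilobase of exon (733 CPM per kilobase in E10.5 Endo, against 178 for *Ramp2* and 154.7 for *Aplnr*). All 79 E8.5 Endo cells held it, from 44.1 CPM through a median of 1515 to 4723 CPM, as did all 61 E10.5 Endo cells, from 2.45 through 3023 to 10499 CPM. It was also detected in nearly all cells of every HPC stage, with lower medians at E9.5 and E10.5 than at E8.25 and E8.5. Of E8.25 HPCs 100% held it (median 336 CPM, range 1.42 to 2730), and of E8.5 HPCs also 100% (271 CPM, 0.475 to 5022). The E9.5 share was 95.7% (66.9 CPM, 0 to 477) and that of E10.5 96.6% (147.7 CPM, 0 to 3586). Macrophages held it in 24 of 25 cells at a median of 15.7 CPM, and Mk in 32.4% of cells at E8.5 and 26.0% at E10.5. None of the 66 E8.5 EryP cells had a count (up to 4.55%). Of *Flk1*-GFP+ cells 38.8% (E7.25) and 29.3% (E7.75) had it.

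*Ramp2*, the partner that makes CALCRL an adrenomedullin receptor, was found in all Endo cells of both stages, with a median of 223 CPM at E8.5 (37.6 to 1701) and 619 CPM at E10.5 (5.58 to 1574). It was detected in fewer HPCs. Its share by stage, from E8.25 on, was 69.9% (58.0 to 80.1), 68.5% (57.8 to 78.0), 47.8% (32.9 to 63.1) and 27.6% (18.5 to 38.2), and the medians were 20.9, 17.7, 0 and 0 CPM. The highest E10.5 HPC had 436 CPM, which was 58.4% of the summed level, so that the mean of 8.58 CPM became 3.62 CPM without it. *Ramp2* was in 2 of 25 Mac cells, 1 of 73 E10.5 Mk cells, 0 of 37 E8.5 Mk cells (up to 8.11%) and 0 of 66 E8.5 EryP cells.

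*Calcrl* and *Ramp2* were therefore detected together in every Endo cell and in a share of HPCs that went from 69.9% and 68.5% at E8.25 and E8.5 to 45.7% (30.9 to 61.0) at E9.5 and 27.6% (18.5 to 38.2) at E10.5. With each cell thinned to 800000 counts, the last 2 shares were 37.8% and 25.7%. *Ramp1*, which pairs with CALCRL in the CGRP receptor, had the opposite order. It was found in 0 of 73 E8.25 HPCs, 0 of 89 E8.5 HPCs, then in 21.7% (10 of 46) at E9.5 and in 67.8% (59 of 87, mean 27.2 CPM) at E10.5. No Endo, Mk or EryP cell had a *Ramp1* count, and 5 of 25 Mac and 9 of 140 E7.75 cells had. The pair *Calcrl* and *Ramp1* was set beside *Calcrl* and *Ramp2* after these values were seen. It was found in 65.5% of E10.5 HPCs (54.6 to 75.4), or 58.1% after thinning. Without the cells that held counts of both sexes it was in 63.2%, and *Calcrl* with *Ramp2* in 23.5%.

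Counted over the 84 E10.5 HPCs with *Calcrl*, 41 held *Ramp1* without *Ramp2*, 16 held both, 8 held *Ramp2* without *Ramp1* and 19 held neither. At E8.5, 61 of 89 held *Ramp2* alone and 28 held neither. *Ramp3*, the remaining RAMP gene, is not in the filtered table, and in the unfiltered counts it was seen in 13 filtered cells. The CDH5+ gate of the early HPCs and the CDH5- gate of the later ones changed between these stages, and so did the flow cell. Stage, gate and flow cell cannot be told apart between E8.5 and the later HPCs. The E9.5 and E10.5 HPCs shared the gate and the flow cell, with 1 sample each. Between them *Ramp1* was in 21.7% and 67.8% of cells and *Ramp2* in 47.8% and 27.6%, a difference that was not tested.

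**Figure D2:**
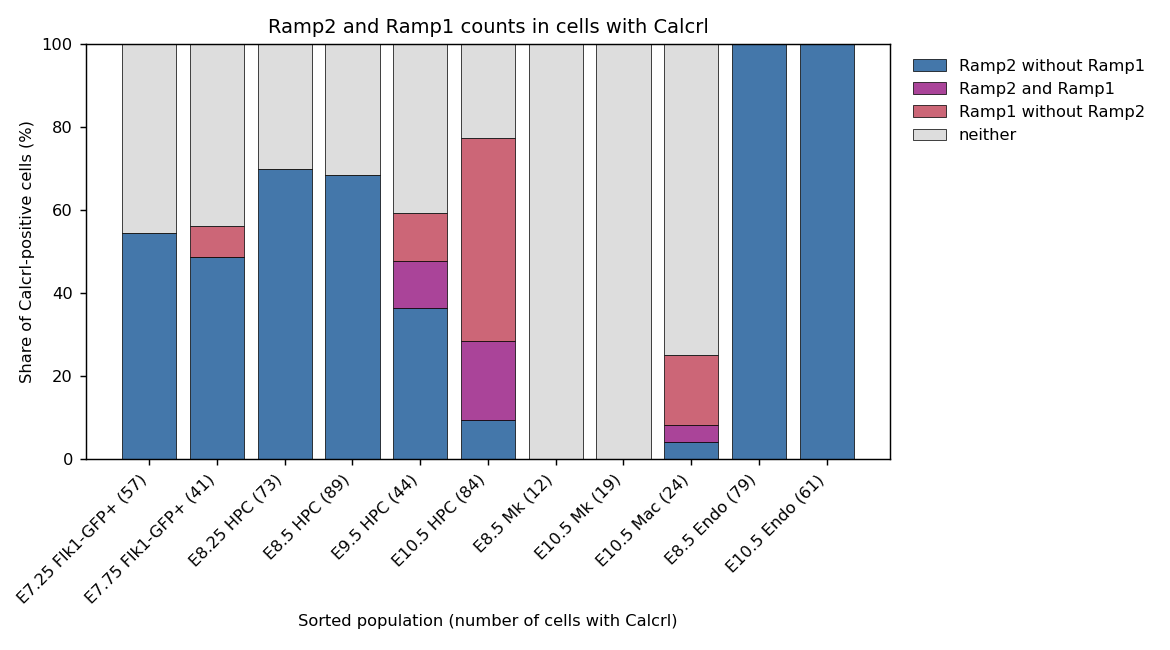
Bars show, for the cells with *Calcrl* in each population (number on the horizontal axis), the percentage that also held *Ramp2* alone, both RAMP genes, *Ramp1* alone or neither. All Endo cells fall in the *Ramp2* class, and *Ramp1* appears in the E9.5 and E10.5 HPCs, with 48.8% of E10.5 cells holding it without *Ramp2*.

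*Adm* was sparse. It was found in 14 of 79 E8.5 Endo cells (17.7%, 10.0 to 27.9), at up to 66.7 CPM, and in 12 of 61 E10.5 Endo cells (19.7%, 10.6 to 31.8), at up to 615 CPM, and its median was 0 in every population. The E10.5 Endo cells with 615, 438 and 389 CPM carried most of its sum there. In the *Flk1*-GFP+ cells it was in 5.44% (E7.25) and 10.0% (E7.75), and no other population passed 4.60%. No E8.5 HPC had it (up to 3.37%). All 14 and all 12 of the *Adm* Endo cells also held *Calcrl* and *Ramp2*, which every cell there held.

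Of the 3 S1P receptor members, *S1pr1* was found in the most cells of endothelium and of each HPC stage. *S1pr4*, a receptor gene outside the members, was in 12.6% of E10.5 HPCs and 11.5% of E10.5 Endo cells. All E8.5 Endo cells held *S1pr1* (2.49 to 858 CPM, median 249) and all E10.5 Endo cells (0.306 to 2568 CPM, median 106.6). From the first to the last HPC stage its share was 71.2%, 74.2%, 60.9% and 50.6% (39.6 to 61.5 at E10.5), with medians of 8.06, 5.90, 1.09 and 0.230 CPM. It was also found in mature blood cells: 68.0% of Mac cells, but at a median of 1.72 CPM and in 24.0% of them at 10 counts or more, 18.9% of E8.5 Mk and 39.7% of E10.5 Mk cells, and 8 of 66 E8.5 EryP cells. Of the 3 E10.5 EryP cells, 1 held 266 counts and the others 0. The early mesoderm had it in 17.7% of E7.25 and 10.0% of E7.75 cells.

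*S1pr2* had another distribution. In *Flk1*-GFP+ cells it was found in 72.1% at E7.25 (64.1 to 79.2; 0 to 196 CPM, median 6.89) and 65.7% at E7.75 (57.2 to 73.5; 0 to 188 CPM, median 4.27). In each lane of both stages its share was between 65.5% and 72.6%. In the later populations it was in at most 27.6% of cells (E10.5 HPC), and in 8.86% of E8.5 Endo and 16.4% of E10.5 Endo cells. Per kilobase of exon, the E7.25 means were 3.45 CPM for *S1pr2* and 2.20 CPM for *S1pr1*, and those of E8.5 Endo 0.248 and 86.9 CPM.

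*S1pr3* was rarely seen. It was found in 9 of 87 E10.5 HPCs (10.3%, 4.84 to 18.7; 2 cells at 99.2 and 59.9 CPM and 7 under 6 CPM), 3 of 46 E9.5 HPCs and 2.72% of E7.25 cells. A single E8.5 Endo cell had it, and 0 of 61 E10.5 Endo cells (a limit of 4.92%). No count was seen in E7.75, EryP, Mk or Mac cells.

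At 1 count or more, cells with exactly 1 of the 3 S1P receptor members were the most frequent in endothelium, early mesoderm, HPCs and macrophages. They made up 89.9% of E8.5 Endo, 83.6% of E10.5 Endo, 61.9% of E7.25 and 61.4% of E7.75 cells. The shares were 65.8%, 62.9%, 50.0% and 47.1% of HPCs from the first to the last stage, and 72.0% of Mac cells. At 10 counts or more, cells without any of the 3 were the most frequent in E7.75 (50.7%), E9.5 HPC (58.7%), E10.5 HPC (56.3%) and Mac (68.0%). Which population had most cells with 2 or more of the 3 genes depended on the limit. At 1 count it was E10.5 HPC (17.2% with 2 and 2.30% with 3), followed by E10.5 Endo (16.4% with 2), and at 10 counts or more it was E10.5 Endo (14.8%), with 4.60% and 1.15% in E10.5 HPC. In E8.5 EryP, 87.9% of cells held none. *S1pr1* and *S1pr2* met in 12.9% of E7.25 cells, where the product of their shares is 12.8%, and in 8.86% of E8.5 Endo cells.

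**Figure D3:**
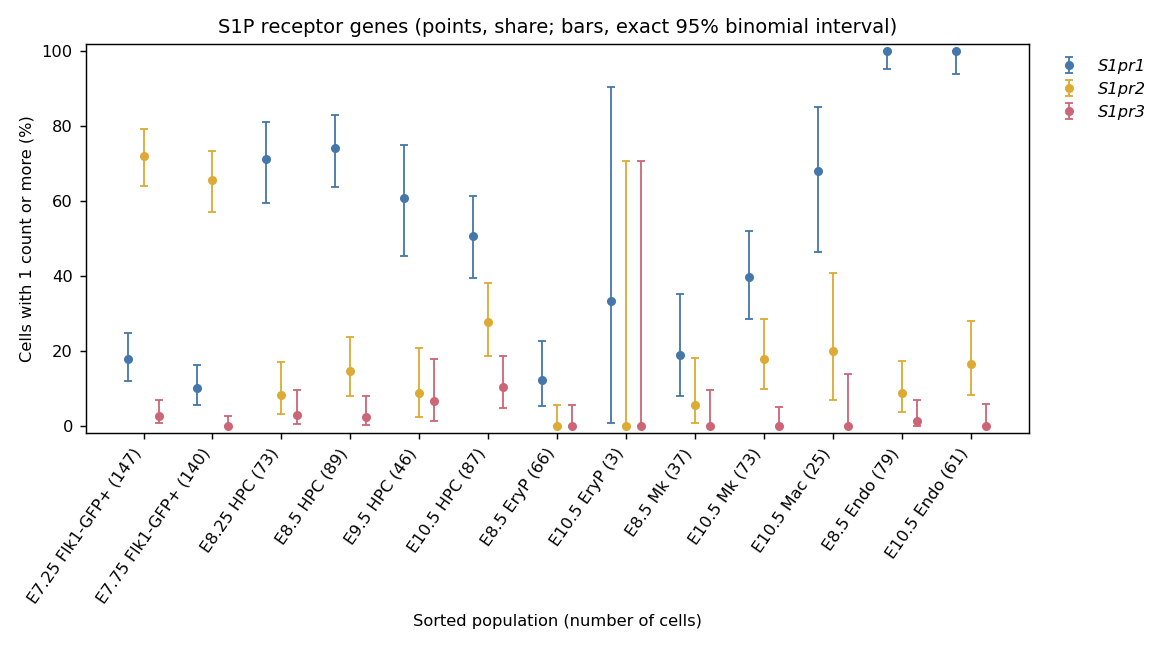
Points give the percentage of cells of each population (horizontal axis, with cell numbers) that held at least 1 count of each S1P receptor gene, and bars the exact 95% binomial interval. *S1pr2* lies above *S1pr1* in both *Flk1*-GFP+ populations (72.1% against 17.7% at E7.25), and *S1pr1* lies above *S1pr2* in all later populations. *S1pr3* stays at or below 10.3%.

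From E8.5 to E10.5 endothelium, 5 members were higher by at least 2-fold and 1 was lower, among 7 with a mean of 10 CPM or more at either stage; of all 9938 such genes, 21.2% were higher and 16.4% lower. The higher ones were *Aplnr* (255 to 572 CPM, 2.24-fold), *Calcrl* (1553 to 3578 CPM, 2.30-fold), *Ramp2* (287 to 587 CPM, 2.05-fold), *Adm* (4.01 to 25.8 CPM, 6.43-fold) and *S1pr2* (1.98 to 19.2 CPM, 9.68-fold). *Apln* was 21.8-fold lower (91.9 to 4.22 CPM). *S1pr1* differed by 1.29-fold (265 to 206 CPM). The ranges of single cells overlapped for every one of these genes. Receptor and ligand of the apelin system thus stood in opposite order, *Aplnr* higher and *Apln* lower at E10.5.

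These directions depend in part on the scale. On the mean of log2(CPM + 1), which weighs every cell alike, 4.17% of all genes were higher by at least 2-fold and 44.6% lower, and the median gene was lower by 0.85. Set against that median, *Calcrl* was higher by 1.77, *Ramp2* by 1.75, *S1pr2* by 1.44, *Adm* by 1.08 and *Aplnr* by 1.00, *S1pr1* was at -0.23 and *Apln* at -3.57. On that scale as it stands *Aplnr* was 0.15, *Adm* 0.23 and *S1pr2* 0.59 higher, and *S1pr1* was lower by 1.08, past 2-fold. With CPM by total count, *Ramp2* was at 0.97, just under 2-fold. *Adm* and *S1pr2* rested on few cells, 12 and 10 of 61 at E10.5. Without the cells that held counts of both sexes, the same 6 members were past 2-fold, with log2 ratios of 1.57 for *Adm* and 1.58 for *S1pr2*.

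**Figure D4:**
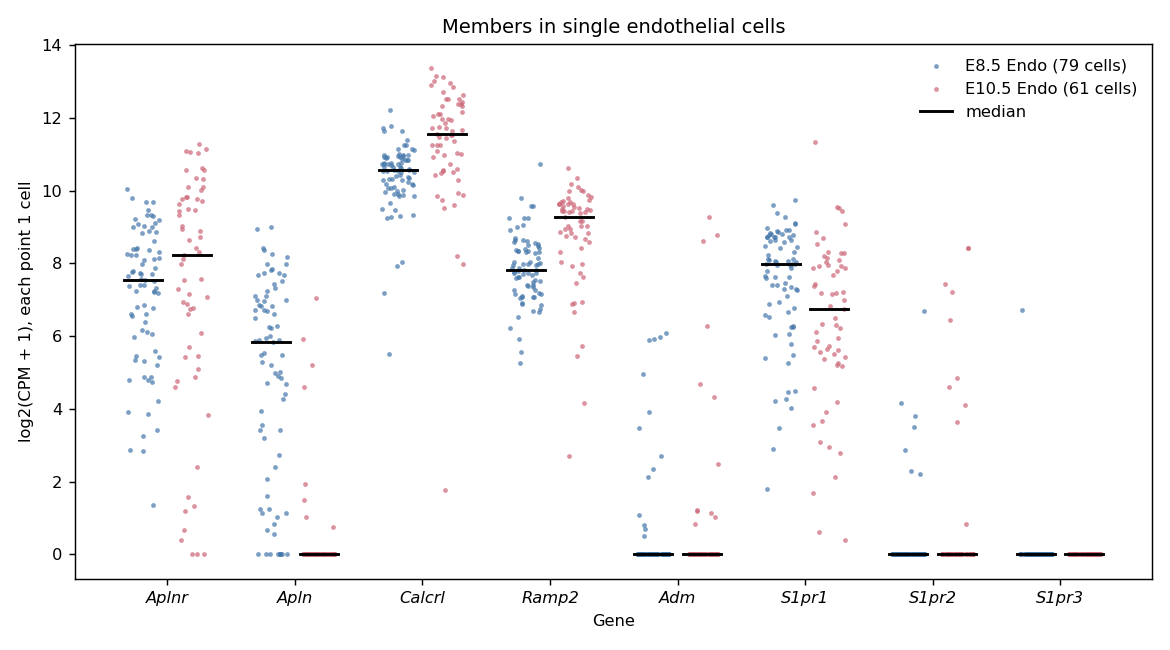
Each point is the log2(CPM + 1) of 1 gene in 1 endothelial cell at E8.5 (79 cells) or E10.5 (61 cells), and black lines are medians. The *Apln* median moves from 56.0 CPM to 0 and the *Ramp2* median from 223 to 619 CPM, while the cells of both stages overlap for every gene shown.

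Against HPCs of the same stage, endothelium was higher for each member that could be compared. At E8.5 these were 5 of 5, against 17.9% of 9433 genes higher and 10.4% lower: *Apln* 31.2-fold (91.9 against 2.94 CPM), *Aplnr* 14.3-fold (255 against 17.8 CPM), *Ramp2* 6.53-fold (287 against 43.9 CPM), *S1pr1* 5.25-fold (265 against 50.4 CPM) and *Calcrl* 3.53-fold (1553 against 440 CPM). *Adm* had 4.01 CPM in Endo and no count in HPC. At E10.5 there were 6 of 6, against 30.4% of 10248 genes higher and 20.4% lower. In falling order the ratios were 81.8-fold for *Aplnr* (572 against 6.99 CPM), 68.4-fold for *Ramp2* (587 against 8.58 CPM), 61.9-fold for *Adm* (25.8 against 0.416 CPM, in 12 of 61 Endo cells), 17.1-fold for *S1pr1* (206 against 12.0 CPM), 13.4-fold for *Calcrl* (3578 against 268 CPM) and 4.83-fold for *S1pr2* (19.2 against 3.96 CPM). The sizes for *Aplnr* and *Ramp2* rest on few HPCs: their log2 ratios of 6.16 and 5.94 were 7.60 and 6.95 without the highest cell of each population, and 9.10 and 7.93 without the E10.5 HPCs with 10 or more counts of *Cdh5* or *Plvap*. That of *Calcrl* was then 4.37 in place of 3.74. All 6 stayed past 2-fold without those HPCs. *Adm* and *S1pr2* were under 2-fold at E10.5 on the mean of log2(CPM + 1).

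In the HPC comparisons made, E8.25 to E8.5 and E8.5 to E10.5, some members were lower at the later stage. No member compared was 2-fold higher. The E9.5 HPCs were not compared in this way, and the *Calcrl* mean was 108.3 CPM at E9.5 and 267.8 CPM at E10.5. From E8.25 to E8.5, 2 of 5 were at least 2-fold lower and none higher, against 3.82% of 8879 genes lower and 2.86% higher: *Apln* (16.4 to 2.94 CPM, 5.57-fold) and *Aplnr* (62.5 to 17.8 CPM, 3.50-fold). Both gates were CDH5+CD41+ and both populations ran on the same flow cell, but in different lanes, so that stage and lane cannot be told apart. From E8.5 to E10.5, 3 of 4 were lower and none higher, against 12.0% of 9184 genes lower and 9.02% higher. These were *Ramp2* (43.9 to 8.58 CPM, 5.12-fold), *S1pr1* (50.4 to 12.0 CPM, 4.20-fold) and *Aplnr* (17.8 to 6.99 CPM, 2.55-fold). Without the highest cell of each population, which at E10.5 left *Aplnr* at 1.80 CPM, its log2 ratio was -2.56 in place of -1.24. *Calcrl* differed by 1.64-fold (440 to 268 CPM). *Aplnr* was under 2-fold without the cells that held counts of both sexes (log2 ratio -0.71) and with 10 CPM added, and *Calcrl* was past 2-fold on the mean of log2(CPM + 1) (-1.03).

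Within single E8.25 HPCs the receptor genes varied together, while *Aplnr* was less tied to the others at E8.5. In E8.25 HPCs the Spearman correlation over 73 cells was 0.70 between *Calcrl* and *Ramp2*, 0.68 between *Aplnr* and *Ramp2*, 0.60 between *Aplnr* and *Calcrl* and 0.57 between *Ramp2* and *S1pr1*. The same genes followed *Cdh5* (0.76 for *Calcrl*, 0.67 for *Ramp2* and *Aplnr*, 0.65 for *S1pr1*) and ran against *Gata1*, the erythroid and megakaryocytic factor (-0.61, -0.62, -0.59 and -0.56). Correlation with the total count was 0.24 or less. In the 89 E8.5 HPCs *Calcrl* and *Ramp2* were at 0.63, and *Calcrl* with *Cdh5* at 0.79. *Aplnr* was there at 0.36 with *Calcrl*, 0.39 with *Ramp2* and 0.32 with *S1pr1*. In the 79 E8.5 Endo cells *Calcrl* and *Ramp2* were at 0.08, and no pair of members passed 0.29. Without the cells that held counts of both sexes *Calcrl* and *Ramp2* were at 0.85 in 47 E8.25 HPCs, 0.57 in 49 E8.5 HPCs and 0.04 in 20 E8.5 Endo cells. *Aplnr* was then at 0.68 with *Calcrl* and 0.77 with *Ramp2* in the E8.25 HPCs, and at 0.18 with each in the E8.5 HPCs. The cells of each of these HPC and Endo populations shared a lane, and no label names their sort. These values describe the cells without a test.

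In the other blood lineages few members could be compared. From E8.5 to E10.5 Mk, 0 of 2 passed 2-fold, against 16.3% of 8983 genes higher and 12.7% lower: *Calcrl* had 15.0 and 9.17 CPM, and *S1pr1*, with 8.18 CPM at E8.5, had a log2 ratio of 0.33. Without the cells that held counts of both sexes *Calcrl* was higher at E10.5 (log2 ratio 1.11). Between E8.5 Mk and EryP only *Calcrl* could be compared. It had 15.0 CPM in Mk, from 12 of 37 cells, against no count in EryP, a log2 ratio of 4.00 with 1 CPM added. With a floor of 3 counts over the EryP cells the ratio was 566-fold. This is not a lower limit, since 1 cell can hold many counts. Of 8651 genes, 14.0% were higher and 8.54% lower. Without the cells that held counts of both sexes the Mk mean of *Calcrl* fell under 10 CPM, so that 0 members could be compared there (log2 ratio 2.39). Between Mac and HPC at E10.5, *Calcrl* was 5.34-fold lower in Mac (50.1 against 268 CPM), as were 24.4% of 9300 genes, with 22.4% higher. *S1pr2* was 3.89-fold higher (15.4 against 3.96 CPM), but 1 Mac cell with 337 CPM made up 87.5% of its sum. Without it the log2 ratio was -0.50. *S1pr1* was 2.02-fold lower by the plain ratio and under 2-fold on the log2 scale with 1 CPM added (-0.90). This comparison and that of Endo with HPC at E10.5 share the E10.5 HPCs.

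The balance of all genes depended on the scale. On the mean of log2(CPM + 1) the median gene stood at -1.26 in Endo against HPC at E10.5 (11.3% of genes higher and 56.2% lower), -0.38 at E8.5 (13.3% and 24.5%), -1.12 in Mac against HPC (6.33% and 53.9%), -0.33 between Mk stages (9.97% and 21.3%) and 0.23 from E8.25 to E8.5 HPC (4.65% and 0.800%). The percentages were 11.4% and 9.63% from E8.5 to E10.5 HPC, 16.1% and 6.28% in Mk against EryP, and 2.50% and 4.52% between the *Flk1*-GFP+ stages. With CPM by total count they were 24.2% and 26.6% in Endo against HPC at E10.5, 16.8% and 28.1% in Mac against HPC, and 16.8% and 6.26% in Mk against EryP. Relative to the median of the log scale, *Aplnr* was 8.26 and *Ramp2* 9.09 higher in E10.5 Endo than in HPC, *Calcrl* was at -1.30 in Mac and *Aplnr* at -1.37 from E8.25 to E8.5 HPC.

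Between the *Flk1*-GFP+ stages 0 of the 4 members compared passed 2-fold, against 4.92% of 8888 genes higher at E7.75 and 5.46% lower. *Calcrl* had means of 16.8 and 13.0 CPM, *Ramp2* 8.07 and 11.3 CPM, and *S1pr2* 27.5 and 25.3 CPM. *S1pr1*, with 6.71 and 1.42 CPM, was below the level compared. In E7.25 lane 6 it had 11.3 CPM and in lane 7 it had 2.19 CPM, and against lane 6 alone the E7.75 cells were more than 2-fold lower.

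*Flk1*-GFP+ cells with at least 4 of 6 blood and endothelial regulators (*Kit*, *Gata2*, *Fli1*, *Hhex*, *Lmo2* and *Tal1*) were set apart as haemato-endothelial, 86 cells against 61 others at E7.25 and 91 against 49 at E7.75. None of the members was used to form the class. *Ramp2* was more frequent in it, with 58.1% (47.0 to 68.7) against 21.3% (11.9 to 33.7) of the other cells at E7.25, and 48.4% (37.7 to 59.1) against 26.5% (14.9 to 41.1) at E7.75, where the intervals overlapped. Its means were 13.0 against 1.12 CPM and 16.4 against 1.95 CPM. The share was higher in the class in each lane, by 44.6 and 29.1 percentage points at E7.25 and by 18.1 and 23.8 at E7.75. *Calcrl* was found in 46.5% against 27.9% of cells at E7.25 and in 35.2% against 18.4% at E7.75, with means of 25.6 against 4.42 CPM and 18.9 against 1.90 CPM, and its intervals overlapped. With at least 3 regulators as the limit the difference at E7.75 was -4.89 percentage points.

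*S1pr2* had the opposite order. At E7.75 it was found in 57.1% (46.3 to 67.5) of haemato-endothelial and 81.6% (68.0 to 91.2) of other cells, and at E7.25 in 68.6% and 77.0%, with overlapping intervals. The difference in share was below 0 in each lane (-34.6 and -18.5 percentage points at E7.75, -14.6 and -4.24 at E7.25). *Apela* followed it, with 58.2% (47.4 to 68.5) against 85.7% (72.8 to 94.1) at E7.75. *Aplnr*, its receptor, was in 83.5% and 75.5% of these cells and in 93.0% and 88.5% at E7.25, so the receptor was widespread in both classes. *Apln* was found in 8 of 91 haemato-endothelial and 0 of 49 other cells at E7.75. All 8 were in lane 8, and 0 of 53 cells of lane 7 held it. At E7.25 it was in 6 of 86 haemato-endothelial and 2 of 61 other cells. Median totals of the classes were close, 1972765 and 2143729 counts at E7.75.

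**Figure D5:**
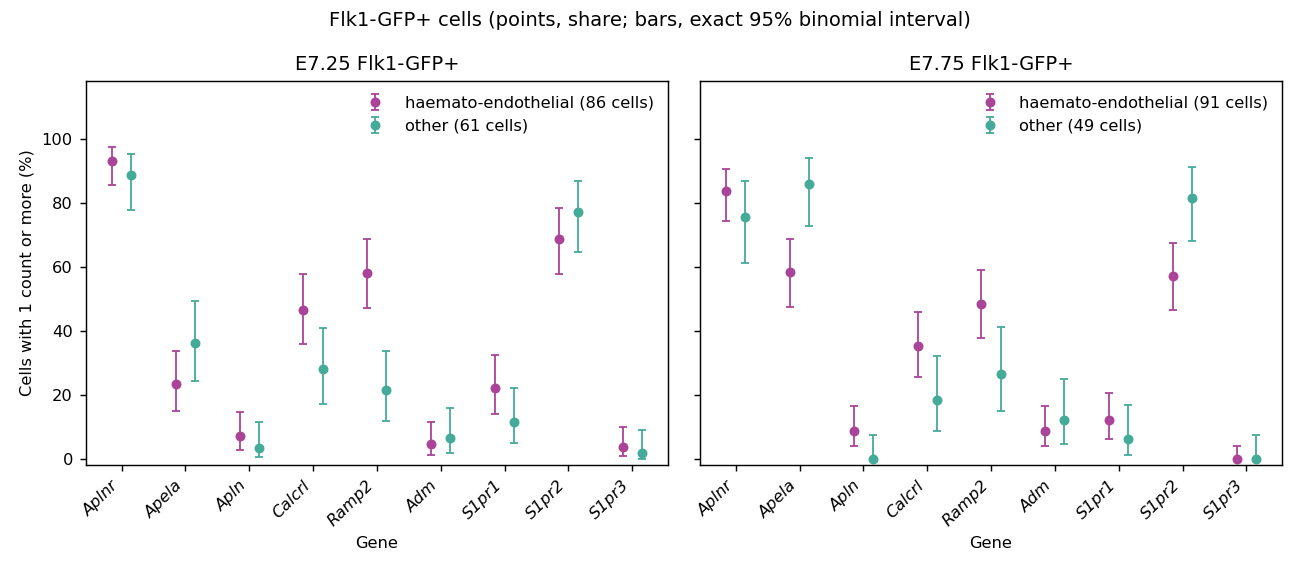
Points give the percentage of haemato-endothelial and other *Flk1*-GFP+ cells at E7.25 (left) and E7.75 (right) with 1 count or more of each gene, and bars the exact 95% binomial interval. *Ramp2* is higher in the haemato-endothelial cells at both stages (58.1% against 21.3% at E7.25), and *Apela* and *S1pr2* are lower in them at E7.75.

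Genes that act with the members were taken from 4 fixed lists of 34 genes, of which 24 are in the filtered table. Of 12 S1P genes, 9 are in the table. In E10.5 against E8.5 Endo, 6 were compared and 4 were at least 2-fold higher, against 21.2% of all genes, with a median log2 ratio of 1.49 (0.06 over all genes). They were the phosphatases *Plpp1* (39.9 to 340 CPM) and *Plpp3* (86.3 to 437 CPM), which remove phosphate from lipids such as S1P, *Sgpp1*, an S1P phosphatase (19.5 to 73.6 CPM), and the sphingosine kinase gene *Sphk2* (5.09 to 12.2 CPM). The means of the last 2 rested on few cells. *Sgpp1* was in 74.7% of E8.5 and 67.2% of E10.5 Endo cells, with medians of 2.98 and 3.24 CPM. *Sphk2* was in 25.3% and 31.1%, with a median of 0 at both stages. Against HPCs of the same stage, *Sgpp1*, *Plpp1* and *Plpp3* were higher in Endo at both stages and *Mfsd2b* lower. *Sgpl1* (the S1P lyase) was in 78.5% of E8.5 Endo and 21.3% of E8.5 HPC cells. Its E10.5 means were 67.0 CPM in Endo and 24.5 CPM in HPC, but it was in 45.9% and 44.8% of cells, its median was 0 in both, and 1 Endo cell had 2431 CPM. *Mfsd2b*, the S1P exporter of red cells and platelets, was in every Mk cell (199 CPM at E8.5 and 539 CPM at E10.5) and in 0 of 61 E10.5 Endo cells. *Spns2*, another S1P exporter, was in all 66 E8.5 EryP cells and in 57.4% of E10.5 Endo cells (67.3 CPM).

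Of 11 genes of the adrenomedullin list 5 are in the table. *Pam*, the enzyme that amidates adrenomedullin, was in 98.7% of E8.5 and 96.7% of E10.5 Endo cells, at 24.8 and 79.5 CPM. *Ackr3*, a decoy receptor for adrenomedullin and CXCL12, was in 39.5% of E7.25 and 35.0% of E7.75 cells and in 0 to 2 cells of each HPC population. In E10.5 against E8.5 Endo 2 of 3 compared were higher (*Pam* and *Ackr3*, the latter in 9 of 61 cells), against 21.2% of all genes. The peptidase gene *Mme* was found in 46.3% and 61.4% of the *Flk1*-GFP+ cells and in 4 cells of all later populations together. In the apelin list *Furin*, a protease that cuts pro-peptides, had a higher mean in Endo than in HPC at E8.5 (11.0 against 3.85 CPM) and at E10.5 (20.1 against 3.67 CPM). At E10.5, however, it was in 60.7% of Endo and 64.4% of HPC cells, with medians of 1.19 and 1.26 CPM. The highest E10.5 Endo cell had 256.8 CPM.

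Of 8 G protein alpha genes, *Gnai2* (Gi, used by S1PR1 and APLNR) was found in all Endo cells at 198 CPM (E8.5) and 437 CPM (E10.5) and was past 2-fold higher at E10.5, while *Gnai3* was past 2-fold lower (417 to 150 CPM). *Gnas* (Gs, used by CALCRL) did not pass 8.99 CPM in any population. That gene has overlapping transcripts, so its count is uncertain. Compared with HPCs by mean, 3 of 6 G protein genes were higher in Endo at E8.5 (*Gnai2*, *Gna11* and *Gna12*) against 17.9% of all genes. At E10.5 there were 5 of 7 against 30.4%, and none was 2-fold lower at either stage. Of those higher at E10.5, *Gnai1* was found in 9 of 61 Endo cells (13.6 CPM). *Gna12* had a lower median in E10.5 Endo (23.6 CPM) than in HPC (48.6 CPM). *Gnai3*, not called, also had a lower median (29.3 against 157.1 CPM) and was in 75.4% of Endo and 97.7% of HPC cells. *Gna12* had a mean of 1090 CPM in Mac but a median of 13.7 CPM.

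Over the 13 population means, the genes most like each member by Pearson's r of log2(mean CPM + 1), among 12324 genes, were *Dlc1*, *Plac1* and *Cpe* for *Aplnr* (0.985 to 0.986), *Clca2*, *Rin1* and *Gria2* for *Apln* (0.967 to 0.969), *Arap3*, *Cd93* and *Igf1* for *Calcrl* (0.953 to 0.967), *Tshz3*, *Ecscr* and *Cdh5* for *Ramp2* (0.975 to 0.981) and *Npr3*, *Pla2g7* and *Ankrd33b* for *Adm* (0.976 to 0.987). All 15 had their highest mean in an Endo population. For *S1pr2* they were *Pwwp2b*, *Abcd4* and *Alpk3* (0.860 to 0.903), and for *S1pr3*, which was hardly detected, *P2ry2*, *Fbp2* and *Mamdc2* (0.831 to 0.863). For *S1pr1* they were *Cnot6l*, *Zfc3h1* and *2810025M15Rik* (0.879 to 0.921), but without the E10.5 EryP mean of 3 cells they were *Gng11*, *Tfpi* and *Gimap4* (0.946 to 0.954). That omission, chosen after the data were seen, also put *Tfpi* and *Cnot6l* beside *Arap3* for *Calcrl*, *Plcg1* first for *Ramp2*, and *Phf23* and *Anapc11* beside *Pwwp2b* for *S1pr2*. Among the members themselves *Calcrl* and *Ramp2* were at 0.91, *Aplnr* and *Ramp2* at 0.87, and *S1pr1* and *S1pr2* at -0.14. The points share flow cells and lanes.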

How the data were processed

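The authors sorted yolk sac cells, captured them on the Fluidigm C1, made Nextera XT libraries, sequenced paired ends and aligned them with Rsubread to the Ensembl mouse genome (the submitters' processing notes name Subread, featureCounts and GRCm38). The deposited count tables hold whole reads per gene from featureCounts, for 1073 captured cells (47643 features) and for the cells and 15967 genes that passed the authors' scater filter. The deposited CPM table was read as a signal: the authors scaled the counts with scran size factors, so its sums per cell run from 699615 to 4176737 and differ between cells. Strand was not kept by this kind of library, so overlapping genes cannot be told apart.

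Shares are cells with 1 count or more, with exact (Clopper-Pearson) 95% intervals. A share of 0 was given the limit of 3 cells of the total, and a fold against a population without a count used a floor of 3 counts over that population. Ratios are log2 of mean CPM + 1, for genes that reached 10 CPM on average in either population, called at 2-fold. With 1 sample per population no test was run. No doublet caller was run. Gene positions and exon lengths come from GENCODE M21 (GRCm38, later than the authors' annotation) and promoters from RefSeq. Python 3.11.15, numpy 2.4.6, pandas 2.3.3 and scipy 1.17.1 were used, and the ratios were checked on simulated counts.

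The members, lists and comparisons were chosen with earlier results of these data known. Named were the 8 members, genes of 4 lists with a mean of 10 CPM or more in a population that passed 2-fold, and the 3 genes most like each member. *Ramp1* with *Calcrl*, and other list genes, were named after their values were seen. Alternatives were 10 counts, thinning to 800000 counts, scaling by total count, means of log2(CPM + 1), pseudocounts of 0.1 and 10, other filters, all captured cells, single lanes, and leaving out the highest cell or cells with counts of both sexes.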

Additional observations from a re-analysis of the deposited data

Results flagged for a closer look

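From E8.5 to E10.5, *Aplnr* and *Ramp2* moved past 2-fold in opposite directions in endothelium and in HPCs. The log2 ratio of *Aplnr* was 1.16 in Endo and -1.24 in HPC, a difference of 2.40, and that of *Ramp2* was 1.03 in Endo and -2.23 in HPC, a difference of 3.26. These calls depend on the setting: the log2 ratio of *Aplnr* in HPC was -0.71 without the cells that held counts of both sexes, that of *Aplnr* in Endo 0.15 on mean log2(CPM + 1), and that of *Ramp2* in Endo 0.97 with CPM by total count. Neither difference was tested, since each population was 1 sample. The HPC gate changed from CDH5+ to CDH5- between these stages, while endothelium stayed CDH5+, and stage and flow cell cannot be told apart. No other member was past 2-fold in opposite directions among the Endo, HPC and Mk pairs.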

How the results depend on the processing

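Of 1123 values recomputed under another setting, 940 stayed close to the first value (counts, means and ratios within 1.5 times, shares within their interval), 180 moved and 3 values that a statement rests on changed sign. These were *S1pr2* in E10.5 Mac against HPC, at -0.06 on mean log2(CPM + 1) and -0.50 without its highest cell, and the *Calcrl* share in haemato-endothelial minus other cells at E7.75, at -4.89 percentage points with 3 or more genes. With all 6 genes the *Ramp2* difference at E7.25 was 58.1 points.

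Values under 2-fold also changed sign, such as *Calcrl* between Mk stages (-0.66, 1.11 without cells of both sexes). Counts of members past 2-fold moved by over 1.5 times as follows. With genes of at least 100 CPM found in 50% of cells, there were 3 for E10.5 against E8.5 Endo, 1 for Mac against HPC, and 0 for E8.5 against E8.25 HPC, E10.5 against E8.5 HPC and E8.5 Mk against EryP. On mean log2(CPM + 1) there were 2 for Endo stages and 1 each for *Flk1*-GFP+ stages, E8.5 against E8.25 HPC and Mac against HPC. Without a filter there were 1 for *Flk1*-GFP+ stages, 4 for E8.5 against E8.25 HPC, 5 for E10.5 against E8.5 HPC, 1 for Mk stages, 5 for Mac against HPC and 3 for E8.5 Mk against EryP. With E7.25 lane 6 there was 1 for *Flk1*-GFP+ stages. Mac against HPC had 1 with a pseudocount of 10 and 4 with CPM by total count. Without cells of both sexes there were 1 for Mk stages and 0 for E8.5 Mk against EryP. The cause was not tested. The 6 members highest in endothelium were 6 under all 3 alternatives.

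At 10 counts or more, *Calcrl* with *Ramp2* was at 12.2% (E7.25), 28.3% (E9.5 HPC) and 17.2% (E10.5 HPC), *Calcrl* with *Ramp1* at 48.3% (E10.5 HPC), *Apln* with *Aplnr* at 16.4% (E8.25 HPC), 1.12% (E8.5 HPC) and 73.4% (E8.5 Endo), and *Adm* with its receptor at 8.20% (E10.5 Endo). Cells with 2 or more S1P receptor genes were then 6.12% (E7.25), 2.14% (E7.75), 5.75% (E10.5 HPC) and 0% (E10.5 Mk). Thinning moved none of the 17 joint shares. Without cells of both sexes *Apln* with *Aplnr* was at 100% (E8.5 Endo) and 5.71% (E10.5 Endo), and 2 or more S1P receptor genes at 20.0% (E8.5 Endo). Of 76 means 36 moved by over 1.5-fold without the highest cell. Shares and correlations without cells of both sexes, the *Calcrl* with *Ramp1* shares and the E10.5 HPCs without endothelial counts were added after the data were seen. No paired analysis was possible because no test was run, and the replicate numbers only number the cells of a population. Shares under about 5% and E10.5 EryP (3 cells) are limited by cell number.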
